A study of Mus musculus with 14 samples.

Results

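The interferon-induced transmembrane (Ifitm) genes Ifitm1, Ifitm2, Ifitm3, Ifitm6 and Ifitm7 were followed in 14 RNA-seq libraries of mouse HPC-LSK cultures. The family was chosen by its measured levels in these same libraries and by how its response to p210 differed between the genotypes. Its 5 members were then found by gene symbol among the 50686 genes in the files. All 5 passed the filter on low counts that left 14512 genes for testing. Because the libraries that chose the family also supply its values, the members are described below without p-values.

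HPC-LSK lines are haematopoietic progenitor lines named for the bone marrow fraction that lacks lineage antigens and carries Sca-1 and Kit. All lines were on a C57BL/6N background. The groups were Cdk6 knockout (KO) lines transformed with BCR-ABL p210 (KO p210, 4 libraries), wild-type (WT) lines transformed with it (WT p210, 3 libraries), KO untransformed lines (3 libraries) and WT untransformed lines (4 libraries). Cdk6 encodes a cell cycle kinase, and BCR-ABL p210 is the fusion kinase of chronic myeloid leukaemia. The medium of untransformed cells held IL-6 at 12.5 ng/ml and 2% SCF, and the growth protocol gives p210 cells as cultured without either, although each p210 sample has the letters SCF in its description. The kinase and the medium cannot be told apart. Nothing in the labels tells if libraries of 1 group came from separate cultures or derivations, so errors and p-values measure only the spread between these samples.

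IFITM proteins are small membrane proteins that stiffen cellular membranes and so hinder the fusion of enveloped viruses with the host cell. Interferons induce their genes through promoter sequences called interferon-stimulated response elements. Stem and progenitor cells also express several of them without added interferon. IFITM1 sits mainly at the plasma membrane, while IFITM2 and IFITM3 carry a longer amino-terminal tail with a sorting signal that takes them to endosomes. Ifitm6 and Ifitm7 are further mouse members that have been studied less.

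In the count files, which use GRCm38, Ifitm1 (ENSMUSG00000025491.14) lies on the plus strand at chr7:140967221-140969825. Ifitm2 (ENSMUSG00000060591.9) lies beside it on the minus strand at chr7:140954837-140955987. Ifitm3 (ENSMUSG00000025492.6) follows at chr7:141009586-141010770 and Ifitm6 (ENSMUSG00000059108.4) at chr7:141015699-141017924, both on the minus strand. Ifitm7 (ENSMUSG00000065968.7) lies apart from the others, on the minus strand at chr16:13981702-13986855. The coding sequences of Ifitm1 and Ifitm7 were 89.4% identical, those of Ifitm1, Ifitm2 and Ifitm3 80.8% to 81.9% identical to each other, and that of Ifitm6 65.9% to 68.8% identical to the rest.

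The bases around the RefSeq transcript starts (GRCm38.p6, 100 bases before to 30 after, written 5′ to 3′ on the strand of the gene) are shown for the 4 members of the chromosome 7 cluster, since these genes lie side by side and yet differed in level and in response. Capitals mark the letters of 2 motifs, the interferon-stimulated response element written GAAANNGAA and the STAT site written TTCNNNGAA, each searched on both strands. The windows are chr7:140967976-140968105 on the plus strand for Ifitm1, and on the minus strand chr7:140955932-140956061 for Ifitm2, chr7:141010715-141010844 for Ifitm3 and chr7:141016863-141016992 for Ifitm6.
Ifitm1: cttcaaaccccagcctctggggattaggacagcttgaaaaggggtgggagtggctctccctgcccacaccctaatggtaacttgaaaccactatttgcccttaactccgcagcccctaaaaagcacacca
Ifitm2: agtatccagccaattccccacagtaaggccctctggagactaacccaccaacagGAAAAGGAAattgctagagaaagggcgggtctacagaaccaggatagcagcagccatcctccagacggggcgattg
Ifitm3: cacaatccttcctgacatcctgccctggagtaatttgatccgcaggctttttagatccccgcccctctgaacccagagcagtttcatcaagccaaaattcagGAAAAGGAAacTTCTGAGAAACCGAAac
Ifitm6: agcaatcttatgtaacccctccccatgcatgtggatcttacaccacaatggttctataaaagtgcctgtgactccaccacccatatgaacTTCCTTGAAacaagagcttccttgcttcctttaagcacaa

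In the windows of 250 bases before to 50 after the start, GAAANNGAA was found in Ifitm2 at bases -46 to -38, as GAAAAGGAA, and in Ifitm3 at bases 3 to 11, as GAAAAGGAA, and again at bases 20 to 28, as GAAACCGAA. The second Ifitm3 match overlaps a TTCNNNGAA match, TTCTGAGAA, at bases 14 to 22. Ifitm6 held TTCNNNGAA at bases -10 to -2, as TTCCTTGAA. Neither motif was in the window of Ifitm1 or Ifitm7. Of all 32851 RefSeq promoters of this length, 8.56% held GAAANNGAA and 8.3% held TTCNNNGAA. The RefSeq starts of Ifitm1, Ifitm2, Ifitm3 and Ifitm6 used here lie inside the genes as the count files draw them. Positions are therefore not counted from the start of the counted gene. For Ifitm2 (140955961) and Ifitm3 (141010744) the start is close to the counted one (140955987 and 141010770). For Ifitm1 (140968076) and Ifitm6 (141016892) it lies further in. A match is a run of letters and not a measured binding site.

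Total counts per library ranged from 20270348 to 50303271. Levels are given as CPM, the counts of a gene scaled to the same library total. Cdk6 averaged 328 ± 179 CPM in KO p210 and 593 ± 15.6 CPM in WT p210 libraries, and 255 ± 17.6 CPM in KO untransformed and 1122 ± 163 CPM in WT untransformed libraries (mean ± SD over the 4, 3, 3 and 4 libraries). The library labelled KO p210 replicate 2 had 578 CPM of Cdk6, inside the WT p210 range of 576 to 606 CPM, whereas the other KO p210 libraries had 163 to 326 CPM. Without it, Cdk6 was past the threshold given below between KO and WT p210 lines (log2 -1.28 ± 0.21, edgeR adjusted p = 0.0143), and with it not (-0.86 ± 0.31, edgeR adjusted p = 0.147). Group means include this library, and differences of the members that involve KO p210 are also given without it. The progenitor marker Kit averaged 31.4 CPM in KO p210, 45.5 CPM in WT p210, 259 CPM in KO untransformed and 431 CPM in WT untransformed libraries. Ly6a, which encodes Sca-1, averaged 10.9, 12.7, 31.8 and 51.7 CPM in the same order. Without KO untransformed replicate 2, 181 of 15045 genes were past that threshold between KO and WT untransformed lines, against 2211 of 14512 with it, so calls in that comparison depend on this library.

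**Figure D1:**
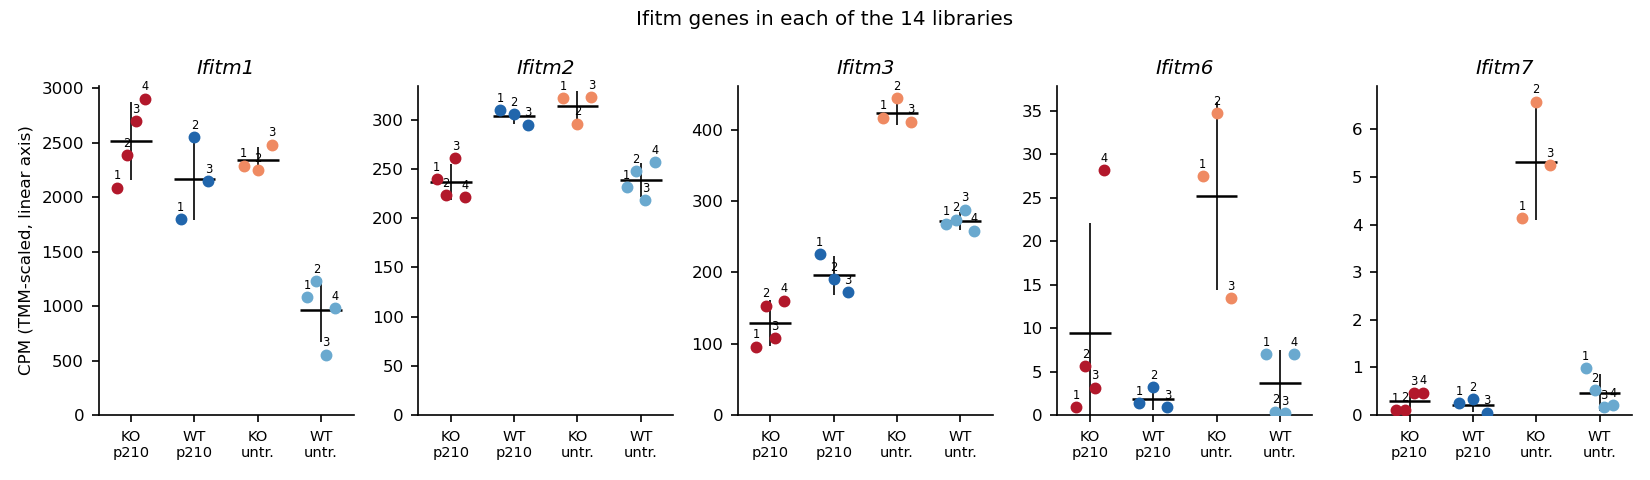
CPM of the 5 Ifitm genes in each of the 14 libraries, on linear axes that differ between genes. Points are libraries with their replicate numbers, horizontal bars are group means and vertical bars are 1 SD on either side, cut at 0 for Ifitm6 and Ifitm7. Ifitm1 is low in the WT untransformed group alone, Ifitm3 is highest in KO untransformed and lowest in KO p210 libraries, and Ifitm7 is high in KO untransformed libraries.

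The 3 abundant members followed 3 different patterns over the 4 groups, and of the sparse members Ifitm7 stood out in the KO untransformed group. Ifitm1 had its lowest level in WT untransformed cells and was about equally high in the other groups. Ifitm2 moved by a small amount and in opposite directions, higher with p210 in WT cells and lower with p210 in KO cells. Ifitm3 was lower with p210 in both genotypes and by more in KO cells. Ifitm7 was higher in KO untransformed libraries than in all others, while Ifitm6 overlapped there with a KO p210 library. A difference is called past the threshold below where edgeR's quasi-likelihood test gave an adjusted p under 0.05 over all 14512 genes.

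In p210 lines, KO against WT, 1 of the 5 members was past the threshold, Ifitm2, and it was lower in KO. Over all genes tested, 3.56% were past the threshold and lower and 0.882% past it and higher. The libraries of the 2 groups did not overlap for 2 members, Ifitm2 and Ifitm3, against 13.3% of all genes. In untransformed lines, KO against WT, 4 of 5 members were past the threshold and all 4 were higher in KO, where 8.73% of all genes were higher and 6.5% were lower. All 5 members were higher in every KO than in every WT untransformed library, against 39.7% of all genes whose groups did not overlap in either direction. With p210 in KO lines, 3 members were past the threshold and lower, where 18.0% of all genes were lower and 19.2% higher, and 3 members did not overlap, against 46.1% of all genes. With p210 in WT lines, 2 members were past the threshold and higher and 1 was lower, where 21.9% of all genes were higher and 17.6% lower, and 3 members did not overlap, against 45.0% of all genes. These contrasts took part in the choice of the family, so nothing is read from the counts. The comparisons share groups (each group enters 2 of them), so they are not independent of each other.

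**Figure D2:**
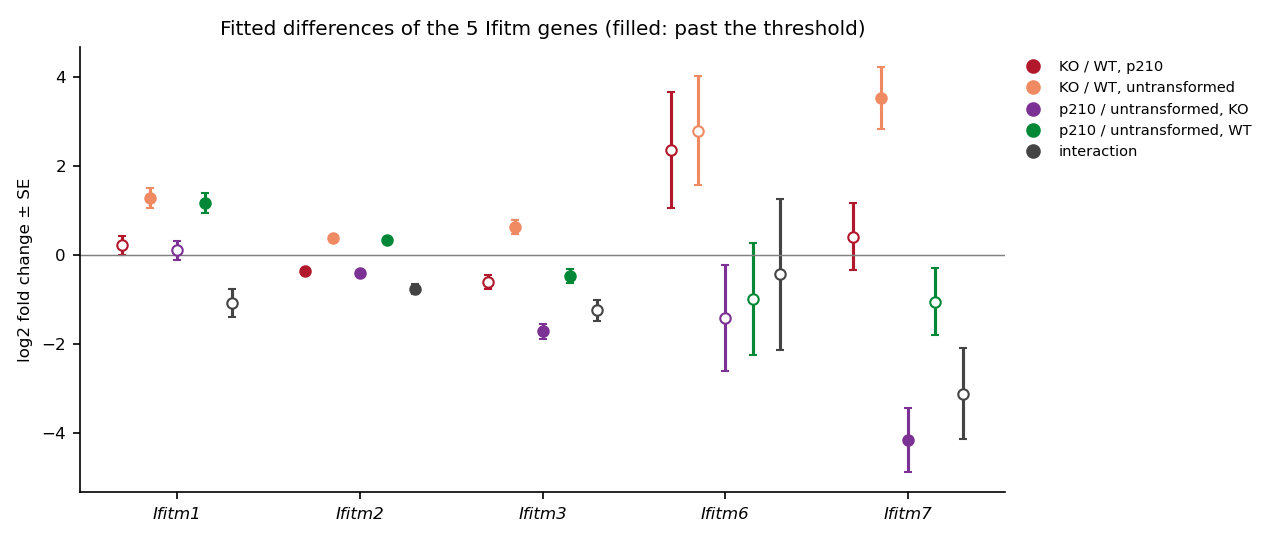
Fitted log2 fold changes of the 5 Ifitm genes with their SE in 4 comparisons and in the interaction of genotype and p210. Filled points are past the threshold and open points are not. For Ifitm2 the KO/WT difference is -0.36 in p210 lines and 0.39 in untransformed lines.

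Ifitm1, the plasma membrane member, had 2087, 2387, 2697 and 2903 CPM in KO p210 libraries and 1798, 2553 and 2149 CPM in WT p210 libraries (replicates in order of number, here and below). It had 2289, 2250 and 2482 CPM in KO untransformed libraries, against 1080, 1229, 553 and 983 CPM in WT untransformed libraries. The WT untransformed libraries all lay below the other 10, whose groups overlapped each other. By mean the order was KO p210 with 2518 ± 357 CPM, KO untransformed with 2340 ± 125 CPM, WT p210 with 2167 ± 378 CPM and WT untransformed with 961 ± 290 CPM (SD). The log2 fold change of KO against WT was 1.28 ± 0.22 (SE) in untransformed lines and 0.22 ± 0.22 in p210 lines. That of p210 against untransformed was 0.11 ± 0.22 in KO and 1.17 ± 0.22 in WT lines. Without the library labelled KO p210 replicate 2, the differences that involve KO p210 were 0.24 from WT p210 and 0.13 from KO untransformed lines. WT untransformed replicate 3 was the lowest of all libraries for Ifitm1, and without it the KO against WT difference in untransformed lines was 1.07 ± 0.15.

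Ifitm2, an endosomal member, had 240, 223, 261 and 221 CPM in KO p210 libraries and 310, 306 and 295 CPM in WT p210 libraries. It had 322, 296 and 323 CPM in KO untransformed libraries, against 231, 248, 218 and 257 CPM in WT untransformed libraries. The KO p210 and WT untransformed libraries overlapped at the lower level, and the WT p210 and KO untransformed libraries overlapped at the higher one. The log2 fold change of KO against WT was -0.36 ± 0.07 in p210 lines and 0.39 ± 0.07 in untransformed lines. That of p210 against untransformed was -0.41 ± 0.07 in KO and 0.35 ± 0.07 in WT lines. Without the library labelled KO p210 replicate 2, the KO against WT difference in p210 lines was -0.34 ± 0.08 and no longer past the threshold, while that of p210 in KO lines was -0.38 ± 0.08 and stayed past it. It was also not past the threshold without WT p210 replicate 1, and without each of the other 12 libraries in turn it stayed past it. With a term for 1 or 2 sequencing runs, Ifitm3 was past the threshold in p210 lines and Ifitm2 was not.

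The counts of Ifitm2 rest on part of its transcript. Of its 655 exon bases, 268 were shared with the predicted gene Gm45717 on the same strand, which itself had 0 counts, leaving 387 bases of its own. Of the 50-base stretches of the Ifitm2 transcript, 48.5% also occurred in other transcripts, among them Ifitm3 and several predicted genes. The share was 5.02% for Ifitm1, 63 of 629 stretches for Ifitm3 and 0 for Ifitm6 and Ifitm7. How reads with several matches were treated is not given in the sources used here, so the level of Ifitm2 set beside other genes is uncertain and may be understated.

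Ifitm3, the endosomal member with the best known part in restricting influenza virus, had 95.9, 153, 108 and 161 CPM in KO p210 libraries and 226, 191 and 172 CPM in WT p210 libraries. It had 417, 444 and 412 CPM in KO untransformed libraries, against 268, 274, 288 and 259 CPM in WT untransformed libraries. No pair of the 4 groups overlapped, and the order of the means was KO untransformed with 424 ± 17.5 CPM, WT untransformed with 272 ± 12.2 CPM, WT p210 with 196 ± 27.4 CPM and KO p210 with 129 ± 32.4 CPM (SD). The log2 fold change of p210 against untransformed was -1.71 ± 0.16 in KO and -0.47 ± 0.16 in WT lines, or 3.28-fold lower in KO p210 and 1.39-fold lower in WT p210 lines. That of KO against WT was -0.60 ± 0.16 in p210 lines, not past the threshold, and 0.64 ± 0.16 in untransformed lines. Without the library labelled KO p210 replicate 2, the KO against WT difference in p210 lines was -0.69 ± 0.17 and the p210 difference in KO lines -1.80 ± 0.17. With the putative line (given with the pairs below) as a block, the p210 difference in WT lines was -0.51 ± 0.17 and no longer past the threshold. That call was also lost without any 1 of the 4 WT untransformed replicates, WT p210 replicate 2 or WT p210 replicate 3. The KO against WT call in untransformed lines was lost without WT untransformed replicate 2, 3 or 4 or any 1 of the 3 KO untransformed replicates, while its value stayed between 0.58 and 0.64.

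Ifitm6 was sparse and varied most within groups. It had 0.941, 5.60, 3.14 and 28.2 CPM in KO p210 libraries and 1.35, 3.19 and 0.914 CPM in WT p210 libraries. It had 27.5, 34.7 and 13.4 CPM in KO untransformed libraries, against 7.01, 0.378, 0.220 and 7.0 CPM in WT untransformed libraries. The KO untransformed libraries lay above all WT untransformed ones, and KO p210 replicate 4 reached the KO untransformed range. The log2 fold change of KO against WT was 2.80 ± 1.22 in untransformed and 2.37 ± 1.3 in p210 lines, and neither was past the threshold by edgeR. The value in p210 lines ran from 0.82 without KO p210 replicate 4 to 3.05 without WT p210 replicate 2, and was 2.55 without the library labelled KO p210 replicate 2. DESeq2 and limma-voom put the difference in untransformed lines, 2.78 and 4.14, past it.

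Ifitm7, the member on chromosome 16, was close to the limit of detection outside 1 group. It had 33 counts in all in KO p210 libraries and 19 in WT p210 libraries, against 526 in KO untransformed and 64 in WT untransformed libraries. In CPM this was 4.14, 6.59 and 5.25 in KO untransformed libraries, against 0.988, 0.529, 0.165 and 0.201 in WT untransformed libraries. All KO p210 libraries had 0.105 to 0.468 CPM and all WT p210 libraries 0.0508 to 0.336 CPM. The log2 fold change of KO against WT was 3.53 ± 0.69 in untransformed lines, and that of p210 against untransformed was -4.15 ± 0.72 in KO lines, both past the threshold. The p210 difference in KO lines was -3.89 ± 0.78 without the library labelled KO p210 replicate 2. The KO against WT difference in untransformed lines ran from 3.22 to 4.08 over the 14 libraries left out in turn, and without KO untransformed replicate 2 it was not past the threshold. The gene 2900011O08Rik overlaps Ifitm7 on the opposite strand, and counting used the strand.

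Levels of different members were set side by side as TPM (transcript abundance, in which counts are divided by exon length before scaling to a common total). Summed TPM of the 5 members was 8630 ± 1120 in KO p210, 9113 ± 620 in WT p210, 10740 ± 551 in KO untransformed and 6115 ± 1000 in WT untransformed libraries (SD). Ifitm1 made up 78.9% to 81.5% of the family TPM in KO p210 libraries, 67.1% to 75.6% in WT p210, 64.2% to 67% in KO untransformed and 40.0% to 58.9% in WT untransformed libraries. These ranges did not overlap. Ifitm3 made up 5.25% to 8.21% in KO p210, 9.11% to 13.6% in WT p210, 17.9% to 20.4% in KO untransformed and 21.2% to 33.6% in WT untransformed libraries. The ratio of Ifitm1 to Ifitm3 TPM was thus 12.5 ± 2.57 in KO p210, 6.99 ± 1.81 in WT p210, 3.43 ± 0.301 in KO untransformed and 2.20 ± 0.698 in WT untransformed libraries. Ifitm6 made up at most 1.2% of the family TPM in any library and Ifitm7 at most 0.0878%. The share of Ifitm2 carries the uncertainty given above and enters the total.

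**Figure D3:**
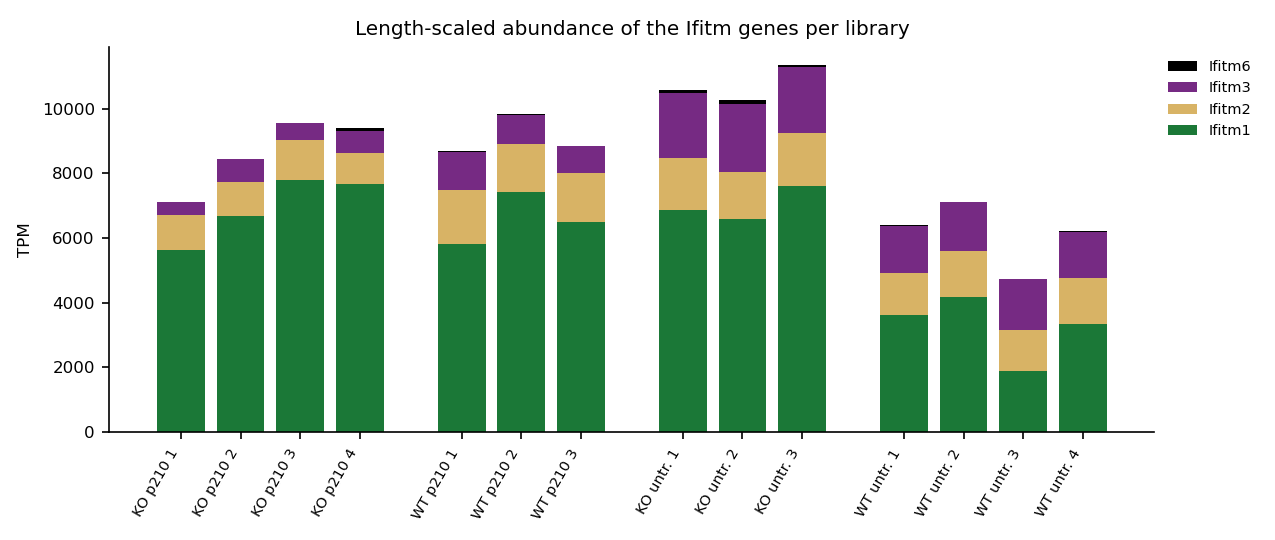
TPM of Ifitm1, Ifitm2, Ifitm3 and Ifitm6 stacked for each library, by group and replicate number. Ifitm7 is too low to be drawn. Ifitm1 forms 78.9% to 81.5% of the family in KO p210 libraries and 40.0% to 58.9% in WT untransformed libraries.

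The interaction of genotype and p210 asks whether the p210 difference was the same in KO and WT lines. It was negative for all 5 members, with log2 values of -1.07 ± 0.31 for Ifitm1, -0.76 ± 0.11 for Ifitm2, -1.24 ± 0.23 for Ifitm3, -0.43 ± 1.70 for Ifitm6 and -3.11 ± 1.02 for Ifitm7. Ifitm2 alone was past the threshold, as 1 of 5 such genes among 14512, or 0.0345% (all 5 negative). The interaction took part in the choice of the family, so nothing is read from this call or from its rarity. The call on Ifitm2 was lost without the library labelled KO p210 replicate 2, where the value was -0.73 ± 0.11. It was also lost without WT p210 replicate 1 and without any 1 of the 3 KO untransformed or 4 WT untransformed replicates. Over the 14 libraries left out in turn the value ran from -0.81 to -0.70. The interaction of Ifitm3 was not past the threshold by edgeR and was past it by DESeq2, which called Ifitm1, Ifitm2 and Ifitm3.

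In the sample descriptions, 6 pairs of libraries (3 KO and 3 WT) shared a code and a letter between the p210 and the untransformed state. The labels do not say that a code and letter mark 1 line, so that these are pairs of the same line is an assumption. Within the pairs, the log2 difference of Ifitm2 between p210 and untransformed CPM was -0.42, -0.41 and -0.55 in KO pairs, against 0.42, 0.30 and 0.43 in WT pairs. The 2 genotypes thus lay on opposite sides of 0 in all 6 pairs. For Ifitm3 it was -2.12, -1.53 and -1.36 in KO pairs, against -0.25, -0.53 and -0.74 in WT pairs. For Ifitm1 it was -0.13, 0.09 and 0.23 in KO pairs, against 0.74, 1.05 and 1.96 in WT pairs. Neither set overlapped the other for any of the 3 genes. For Ifitm6 the sets did overlap, with -4.87, -2.63 and 1.07 in KO pairs and -2.38, 3.08 and 2.06 in WT pairs. For Ifitm7, on few counts, they did not, with -5.31, -5.83 and -3.49 in KO pairs and -1.98, -0.65 and -1.70 in WT pairs. The share of all genes whose sets do not overlap was not computed. The response to p210 also took part in choosing the family, so nothing is read from this. The second KO pair holds the library labelled KO p210 replicate 2. With the pair as a block, the interaction of Ifitm2 was -0.84 ± 0.10 and not past the threshold, in a fit with fewer degrees of freedom.

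**Figure D4:**
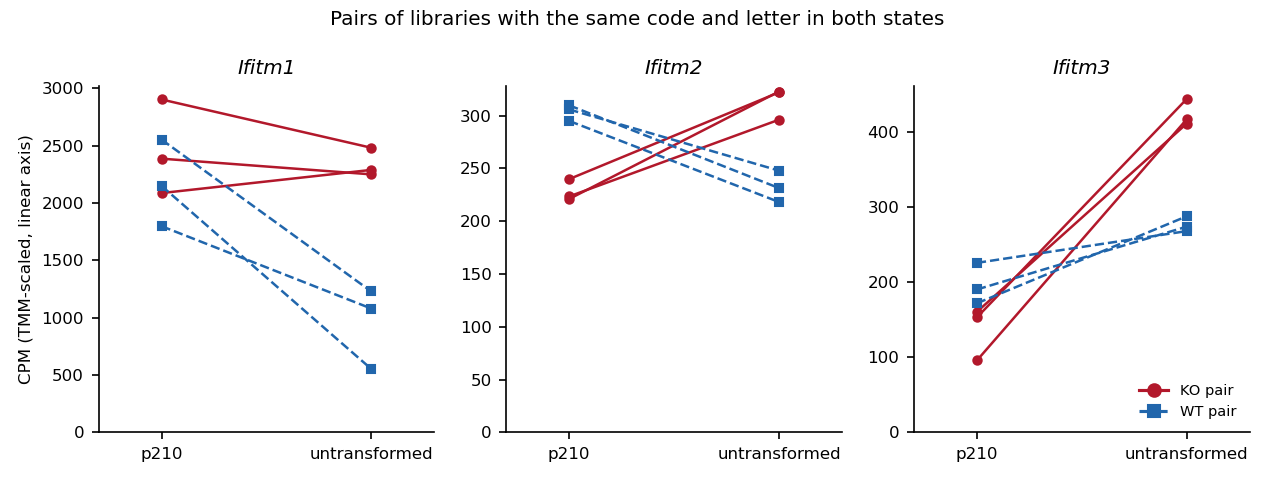
CPM of Ifitm1, Ifitm2 and Ifitm3 in the 6 pairs of libraries whose descriptions share a code and letter, p210 cells at the left of each panel and untransformed cells at the right. Each stroke joins 1 KO pair (red, circles) or 1 WT pair (blue dashed, squares). For Ifitm2, all 3 KO pairs are lower and all 3 WT pairs higher as p210 cells.

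RNA of the interferons themselves was at or near 0. The 21 interferon ligand genes together had 3 counts in KO p210, 8 in WT p210, 2 in KO untransformed and 1 in WT untransformed libraries. None of the 21 passed the filter, so none was tested.

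Receptor and signalling genes of the pathway that passed the test were all higher in KO untransformed lines. Of 22 tested of 23, 11 were past the threshold and higher in KO untransformed than in WT untransformed lines and none was lower. Over all genes, 8.73% were past it and higher and 6.5% past it and lower. The median log2 fold change of the list was 0.57, against -0.02 over all genes. Ifnar1, a chain of the type I interferon receptor, averaged 117 ± 15.9 CPM in KO untransformed and 65.7 ± 13.1 CPM in WT untransformed libraries (log2 0.84 ± 0.14, edgeR adjusted p = 0.00656). Ifngr1, the ligand-binding chain of the interferon gamma receptor, averaged 462 ± 105 CPM in KO untransformed and 164 ± 76.1 CPM in WT untransformed libraries (1.5 ± 0.30, edgeR adjusted p = 0.0108, and 0.0661 without KO untransformed replicate 2). Stat2, a subunit of the interferon-activated complex, averaged 37.8 ± 4.33 CPM in KO untransformed and 21.7 ± 4.94 CPM in WT untransformed libraries (0.80 ± 0.17, edgeR adjusted p = 0.0123). The count of 11 became 1 without KO untransformed replicate 2 and was also more than 1.5 times smaller without KO untransformed replicate 1, WT untransformed replicate 3 or WT untransformed replicate 4. Of the genes named here and below as past the threshold between untransformed genotypes, Ifnar1 and Lamp1 stayed past it without each library in turn, and the call on every other one was lost without KO untransformed replicate 2.

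In p210 lines, 0.882% of all genes were past the threshold and higher in KO and 3.56% past it and lower. A count of 1 gene is therefore not read as a result about the list. Between genotypes there, 1 of these 22 genes was past the threshold. It was Ptpn1, a phosphatase that acts on Janus kinases, with 201 ± 31.6 CPM in KO p210 and 128 ± 11.2 CPM in WT p210 libraries (0.65 ± 0.12, edgeR adjusted p = 0.0115, or 0.0316 if the library labelled KO p210 replicate 2 is left out). With p210, 3 genes were higher and 6 lower in KO lines, and 7 were higher and 3 lower in WT lines. Over all genes, 19.2% were higher and 18.0% lower in KO lines, and 21.9% were higher and 17.6% lower in WT lines. Without KO untransformed replicate 2 the 6 became 3, and without WT p210 replicate 3 the 7 became 4. Socs1, a feedback inhibitor of the pathway, was higher with p210 in both genotypes, by 3.30 ± 0.49 in KO lines (edgeR adjusted p = 0.000416) and 3.65 ± 0.45 in WT lines (edgeR adjusted p = 0.000118). Socs3, a related inhibitor, was lower with p210, by log2 -1.89 ± 0.20 in KO lines (edgeR adjusted p = 6.75e-05) and -0.65 ± 0.21 in WT lines (edgeR adjusted p = 0.0268). The last of these calls was lost without WT untransformed replicate 1, WT p210 replicate 2 or WT p210 replicate 3.

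In p210 lines, other interferon response genes that passed the test lay below their WT level in KO libraries. Of 50 such genes, 45 were tested. Between p210 lines, 4 were lower and none higher in KO, against 3.56% of all genes that were lower, with a median log2 fold change of -0.44, against -0.0014 over all genes. They were Oasl2, Usp18, Ifit2 and Rtp4, all induced by type I interferon. Usp18, which removes the ubiquitin-like ISG15 and damps interferon signalling, averaged 4.71 ± 1.31 CPM in KO p210 and 19.5 ± 5.19 CPM in WT p210 libraries (-2.05 ± 0.36, edgeR adjusted p = 0.00887). Ifit2 averaged 0.848 ± 0.536 CPM in KO p210 and 7.51 ± 5.30 CPM in WT p210 libraries (-3.17 ± 0.57, edgeR adjusted p = 0.0109). Oasl2 had 8 counts in all in KO p210 and 143 in WT p210 libraries (-4.52 ± 0.61, edgeR adjusted p = 0.00271), and Rtp4 had 8 in KO p210 and 93 in WT p210 libraries (-3.82 ± 0.69, edgeR adjusted p = 0.0112). Without the library labelled KO p210 replicate 2, 5 were lower, with log2 values of -4.78 for Oasl2, -2.18 for Usp18, -2.97 for Ifit2 and -4.08 for Rtp4. Without KO p210 replicate 1, 7 were lower. With 4 to 7 lower over all libraries left out in turn, the direction was the same, and in a fit of the 2 groups alone none was past the threshold.

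In untransformed lines, 5 of the 45 genes were higher and none lower in KO than in WT, a share near the 8.73% of all genes that were higher, with a median of 0.22. B2m, the light chain of MHC class I, averaged 2037 ± 69.2 CPM in KO untransformed and 1213 ± 271 CPM in WT untransformed libraries (0.75 ± 0.15, edgeR adjusted p = 0.0119). Ly6e, which restricts coronaviruses, averaged 1560 ± 111 CPM in KO untransformed and 1078 ± 158 CPM in WT untransformed libraries (0.53 ± 0.16, edgeR adjusted p = 0.0418). Xaf1 averaged 21.4 ± 7.46 CPM in KO untransformed and 4.91 ± 0.671 CPM in WT untransformed libraries (2.12 ± 0.45, edgeR adjusted p = 0.0127). Ifit3, an RNA-response gene of the IFIT family, averaged 1.51 ± 0.862 CPM in KO untransformed and 0.319 ± 0.181 CPM in WT untransformed libraries (2.24 ± 0.66, edgeR adjusted p = 0.0404). The count of 5 became 0 without KO untransformed replicate 2 and was more than 1.5 times smaller without KO untransformed replicate 1, WT untransformed replicate 2, 3 or 4, WT p210 replicate 1 or 2, or the library labelled KO p210 replicate 2.

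With p210, 24 of the 45 genes were lower and 1 higher in KO lines, where 18.0% of all genes were lower and 19.2% higher. The median there was -1.12, against -0.01 over all genes. In WT lines 12 were lower and 7 higher, where 17.6% of all genes were lower and 21.9% higher. The median there was -0.38, against 0.02 over all genes. The 24 lower genes numbered 21 to 25 over the libraries left out in turn, and the 7 higher ones 3 to 9, with the fall past 1.5 times without WT untransformed replicate 3 or 4 or WT p210 replicate 3. The 1 gene higher in KO lines was lost without most of the libraries taken singly, the library labelled KO p210 replicate 2 among them. Psmb9, a subunit of the immunoproteasome, was lower by -1.27 ± 0.14 in KO lines (edgeR adjusted p = 8.78e-05) and -1.06 ± 0.15 in WT lines (edgeR adjusted p = 0.000247). Dtx3l, a ubiquitin ligase, was lower by -0.72 ± 0.10 in KO lines (edgeR adjusted p = 0.00031) and -0.52 ± 0.10 in WT lines (edgeR adjusted p = 0.00216). Mx1, an antiviral GTPase, averaged 2.59 ± 0.654 CPM in WT p210 and 0.133 ± 0.0978 CPM in WT untransformed libraries (4.23 ± 0.75, edgeR adjusted p = 0.00103). It averaged 0.670 ± 0.286 CPM in KO p210 and 0.685 ± 0.451 CPM in KO untransformed libraries (-0.02 ± 0.70, edgeR adjusted p = 0.987). For the interaction, edgeR put none of the 45 past the threshold. Of them, 17 had an unadjusted p under 0.05, against 2041 of all 14512 genes. Their median was -0.83, against -0.03 over all genes. DESeq2 called 5 of the 45 and limma-voom none.

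**Figure D5:**
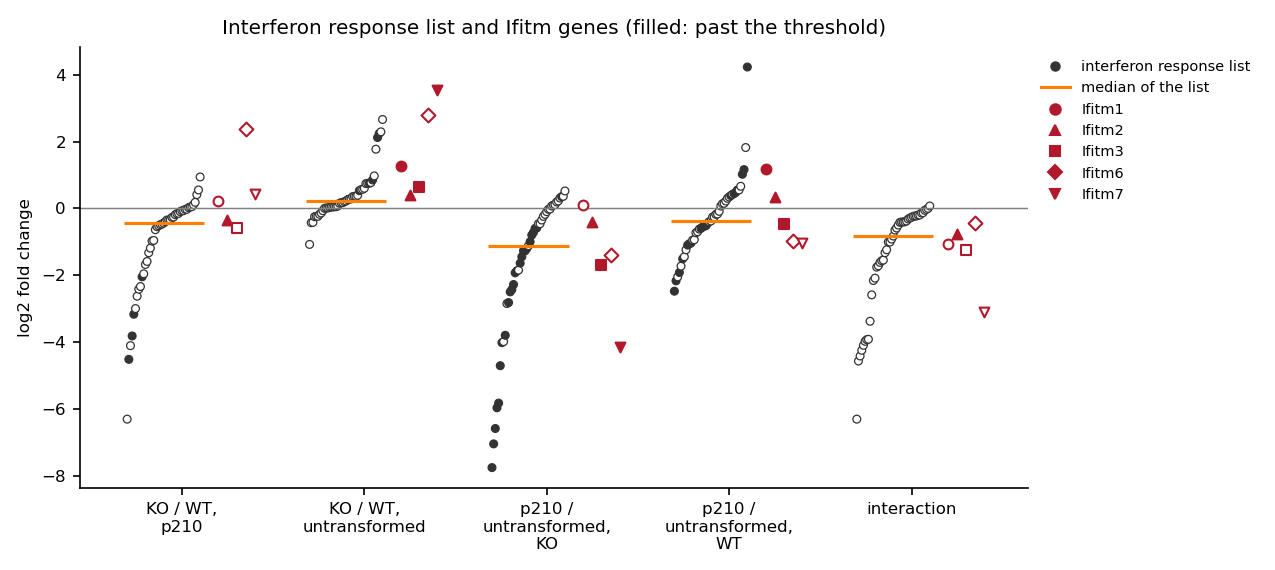
Log2 fold changes of the 45 tested interferon response genes (dark circles, sorted within each comparison, with the median as an orange bar) beside the 5 Ifitm genes (red symbols). Filled symbols are past the threshold and open ones are not. The median of the list is -1.12 for p210 in KO lines and -0.38 in WT lines.

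Genes whose products modify or bind IFITM proteins were followed as a list of 20, of which 19 were tested. In p210 lines none was past the threshold between genotypes by edgeR or limma-voom and 1 was by DESeq2. Of the 19, 5 had an unadjusted p under 0.05 by edgeR there, against 2881 of all 14512 genes. In untransformed lines 4 were higher and 3 lower in KO, with a median of -0.11, where 8.73% of all genes were higher and 6.5% lower. Zdhhc9, a palmitoyltransferase, averaged 52.0 ± 5.07 CPM in KO untransformed and 34.0 ± 1.98 CPM in WT untransformed libraries (0.61 ± 0.12, edgeR adjusted p = 0.00954). Setd7, a lysine methyltransferase that modifies IFITM3, averaged 190 ± 3.50 CPM in KO untransformed and 256 ± 22.6 CPM in WT untransformed libraries (-0.43 ± 0.08, edgeR adjusted p = 0.00853). Fyn, a kinase that phosphorylates the endosomal sorting signal, was lower in KO untransformed lines (-0.60 ± 0.16, edgeR adjusted p = 0.0306), a call lost without WT untransformed replicate 2, 3 or 4 or KO untransformed replicate 1 or 2. Without KO untransformed replicate 2 none of the 7 was past the threshold, and the 3 lower ones were fewer by over 1.5 times without KO untransformed replicate 1 or WT untransformed replicate 2, 3 or 4. Without WT p210 replicate 3, 5 were lower. With p210, 8 genes were higher in KO and 6 in WT lines and none was lower in either, where 19.2% of all genes were higher in KO and 21.9% in WT lines. The 8 numbered 5 to 9 and the 6 numbered 2 to 6 over the libraries left out in turn. The count in KO lines was lowest without libraries of the KO groups (KO untransformed replicate 1 or 3, KO p210 replicate 1 or the library labelled KO p210 replicate 2), and the count in WT lines without WT p210 replicate 3, WT untransformed replicate 4 or KO untransformed replicate 1 or 3. Cd63, a tetraspanin of late endosomes, was higher by 0.59 ± 0.11 in KO lines (edgeR adjusted p = 0.00138) and 1.03 ± 0.11 in WT lines (edgeR adjusted p = 3.86e-05).

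Of 19 other membrane and entry factors, 16 were tested, and 7 were higher and 1 lower in KO untransformed than in WT untransformed lines, with a median of 0.48. Over all genes, 8.73% were higher and 6.5% lower in that comparison. Lamp1, a lysosomal membrane protein, averaged 958 ± 151 CPM in KO untransformed and 464 ± 73.2 CPM in WT untransformed libraries (1.05 ± 0.17, edgeR adjusted p = 0.00573). Npc2, a cholesterol carrier of late endosomes, averaged 603 ± 93.7 CPM in KO untransformed and 317 ± 82.2 CPM in WT untransformed libraries (0.93 ± 0.18, edgeR adjusted p = 0.00934). Serinc3, which is taken into virus particles and blocks their entry, was lower in KO untransformed lines (-0.44 ± 0.09, edgeR adjusted p = 0.0114). The count of 7 became 2 without KO untransformed replicate 2, which also ended the calls on Npc2 and Serinc3, and was smaller by over 1.5 times without KO untransformed replicate 1 or WT untransformed replicate 3 or 4. In p210 lines 1 gene was higher in KO, the late endosomal fusion protein Stx7 (0.35 ± 0.07, edgeR adjusted p = 0.0198), a call lost without the library labelled KO p210 replicate 2 (edgeR adjusted p = 0.0565) or WT p210 replicate 1 (edgeR adjusted p = 0.101). Over all genes, 0.882% were past the threshold and higher in KO than in WT p210 lines. With p210, 18.0% of all genes were lower in KO lines, and 21.9% were higher and 17.6% lower in WT lines. Of the 16 entry factors, 2 were lower with p210 in KO lines, and 5 were higher and 1 lower in WT lines. Without KO p210 replicate 4 the 2 became 5, and the 5 higher in WT lines numbered 2 to 6, with the falls past 1.5 times without WT untransformed replicate 3 or 4 or WT p210 replicate 2 or 3.

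Of the wider dispanin family to which IFITM proteins belong, 9 further genes were in the files and 4 were tested, all under 1.2 CPM in every group mean. Ifitm5, a bone-expressed relative within the same cluster, averaged 1.16 ± 0.358 CPM in WT p210 and 0.434 ± 0.114 CPM in WT untransformed libraries (1.41 ± 0.34, edgeR adjusted p = 0.00638). It averaged 0.677 ± 0.242 CPM in KO p210 and 0.420 ± 0.0745 CPM in KO untransformed libraries (0.71 ± 0.36, edgeR adjusted p = 0.139). None of the 4 was past the threshold between genotypes in either state by edgeR, DESeq2 or limma-voom. By edgeR, 1 had an unadjusted p under 0.05 in p210 lines and none in untransformed lines. Of all 14512 genes, 2881 had such a p in p210 lines and 4722 in untransformed lines.

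Of 26 genes with a start within 150 kb of a chromosome 7 member, 14 were tested. Between genotypes, 1 was lower in KO p210 lines, where 3.56% of all genes were lower, and 1 was higher in KO untransformed lines, where 8.73% were higher, so neither count is a result about the neighbours. DESeq2 called 5 in untransformed lines, 3 higher and 2 lower in KO, and limma-voom 1. Nlrp6, an inflammasome sensor, had 2 counts in all in KO p210 libraries, against 263 in WT p210 libraries (edgeR adjusted p = 0.0144), a call lost without WT p210 replicate 1. Ric8a, a chaperone of G protein subunits, averaged 111 ± 5.73 CPM in KO untransformed and 85.3 ± 7.62 CPM in WT untransformed libraries (0.38 ± 0.08, edgeR adjusted p = 0.0134), a call lost without WT untransformed replicate 4 or any 1 of the 3 KO untransformed replicates. It was higher with p210 by 0.70 ± 0.08 in KO lines (edgeR adjusted p = 0.000121) and 1.03 ± 0.08 in WT lines (edgeR adjusted p = 8.69e-06). Pgghg, a collagen glucosidase, was lower with p210 by -0.43 ± 0.12 in KO lines (edgeR adjusted p = 0.0126) and -0.46 ± 0.12 in WT lines (edgeR adjusted p = 0.00908). With p210, 3 of the 14 were higher and 1 lower in KO lines, and 2 were higher and 2 lower in WT lines. Over all genes, 19.2% were higher and 18.0% lower in KO lines, and 21.9% were higher and 17.6% lower in WT lines. These counts are therefore not read as a result about the neighbours. For the interaction none of the 14 was past the threshold by edgeR, DESeq2 or limma-voom. By edgeR, 3 of them had an unadjusted p under 0.05, against 2041 of all 14512 genes.

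On chromosome 16, 9 genes lay within 150 kb of Ifitm7 and 3 were tested. The overlapping antisense gene 2900011O08Rik averaged 0.0413 ± 0.0479 CPM in KO p210 and 0.105 ± 0.0449 CPM in WT p210 libraries, and 0.699 ± 0.287 CPM in KO untransformed and 0.0409 ± 0.0538 CPM in WT untransformed libraries. It was higher in KO untransformed than in WT untransformed lines (3.76 ± 0.81, edgeR adjusted p = 0.0132, and 0.067 without KO untransformed replicate 2) and lower with p210 in KO lines (-3.84 ± 0.86, edgeR adjusted p = 0.00478). Ifitm7 had the same 2 calls. Neither of the other tested neighbours was past the threshold in those comparisons.

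The genes most like each member over the 14 libraries were ranked by the root mean square difference of mean-centred log2(CPM + 1), among 9813 genes of at least 5 CPM. For Ifitm1, whose own spread on this scale was 0.67, they were Ern1 (0.213), Grn (0.218), Rhog (0.218) and Pstpip1 (0.22). For Ifitm2, with a spread of 0.203, they were Tmem18 (0.127), Sirt3 (0.136), Pdss2 (0.138) and Mmgt2 (0.143). Sirt3, a mitochondrial deacetylase, is also one of the chromosome 7 neighbours. For Ifitm3, with a spread of 0.663, they were Prcp (0.256), Ext1 (0.264), B3glct (0.268) and Acaa2 (0.293). For Ifitm7, with a spread of 0.957, they were Nxpe5 (0.372), Tpd52 (0.373), Il6ra (0.396) and Ifngr1 (0.446). For Ifitm6, with a spread of 1.61, they were Dgat2 (0.575), Lrg1 (0.622), B4galt6 (0.759) and Fpr2 (0.76). Between members the difference was 0.612 for Ifitm1 and Ifitm2, 0.603 for Ifitm2 and Ifitm3 and 1.07 for Ifitm1 and Ifitm3. The genes named above were picked as the nearest of 9813, so they lie closer by selection. The rank of the members among all genes was not taken, so nothing is read from their likeness.

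Markers of several blood lineages also differed between the groups. The summed CPM of 10 monocyte markers was 9348 to 14570 in KO untransformed and 651 to 3149 in WT untransformed libraries, and 4772 to 9565 in KO p210 and 1882 to 4681 in WT p210 libraries. Lyz2 alone averaged 9015, 1192, 6088 and 2249 CPM in the same order, so the sum mostly follows this gene. By mean, Ccr2, Fcgr1 and Klf4 were lower in KO p210 than in WT p210 libraries, against the sum. In untransformed lines 3 of the 10 were past the threshold and all 3 were higher in KO, Lyz2 (2.92 ± 0.68, edgeR adjusted p = 0.018), Ccr2 (1.55 ± 0.41, edgeR adjusted p = 0.0292) and Ms4a6c (2.87 ± 0.86, edgeR adjusted p = 0.0448). The count of 3 became 0 without KO untransformed replicate 2 and was smaller by over 1.5 times without KO untransformed replicate 1 or WT untransformed replicate 4. Over all genes, 8.73% were past the threshold and higher in KO untransformed lines. With p210 in KO lines 5 of the 10 monocyte markers were lower and none higher, where 18.0% of all genes were lower and 19.2% higher. This count ran from 2 to 6 over the libraries left out in turn, with 3 without the library labelled KO p210 replicate 2. It also fell by over 1.5 times without KO untransformed replicate 1 or 2 or KO p210 replicate 1 or 3. The summed CPM of 16 neutrophil markers was 16040 to 20610 in KO untransformed and 351 to 8506 in WT untransformed libraries, and 2734 to 16290 in KO p210 and 1388 to 5161 in WT p210 libraries. Mpo alone averaged 13000 CPM in KO untransformed and 975 CPM in KO p210 libraries, whereas S100a9 averaged 293 and 1980 CPM. By mean, Elane, Mpo, Prtn3, Ms4a3 and Fcnb were lower in KO p210 than in KO untransformed libraries, and the other tested markers were higher. The sum thus does not stand for each marker. None of the 15 tested was past the threshold between genotypes in either state by edgeR, with 3 at an unadjusted p under 0.05 in each state. Of all 14512 genes, 2881 had such a p in p210 lines and 4722 in untransformed lines. Nothing is therefore read from the 3 in either state. Of the 15, DESeq2 called 3 in untransformed and 1 in p210 lines, and limma-voom called 2 in untransformed and none in p210 lines. The defining marker Ly6g had 3 counts in KO p210 and 0 in all other groups. KO p210 libraries overlapped the KO untransformed ones in both sums. Of 10 megakaryocyte and erythroid markers, 8 were tested, and 5 were lower in KO than in WT untransformed lines and 4 lower in KO than in WT p210 lines. Their summed CPM was 987 to 1616 in KO untransformed and 2518 to 6225 in WT untransformed libraries, and 1231 to 1834 in KO p210 and 1545 to 2700 in WT p210 libraries. The 5 numbered 0 to 7 and the 4 numbered 1 to 5 over the libraries left out in turn, where leaving out the library labelled KO p210 replicate 2 gave 3 and 1, and leaving out WT p210 replicate 1 also lowered the 4 by over 1.5 times. Of all genes, 6.5% were lower in KO untransformed and 3.56% in KO p210 lines by edgeR. DESeq2 called 7 megakaryocyte and erythroid markers lower in untransformed and 5 in p210 lines, and limma-voom 6 and 0. Of 11 progenitor markers, 4 were lower in KO than in WT p210 lines by edgeR, 5 by DESeq2 and none by limma-voom. With p210, 7 of them in KO and 5 in WT lines were lower, where 18.0% and 17.6% of all genes were lower. Of 10 basophil and mast cell markers, 4 were higher with p210 in each genotype and 3 lower in WT lines, and 1 was higher in KO than in WT untransformed lines. DESeq2 and limma-voom called none lower with p210 in WT lines. Over all genes, 19.2% were higher with p210 in KO lines, 21.9% higher and 17.6% lower in WT lines, and 8.73% higher in KO untransformed lines. In bulk cultures, more cells of a type and more RNA per cell cannot be told apart. The part of these cells in the Ifitm levels was not tested.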

How the data were processed

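RNA of 14 HPC-LSK cultures was sequenced as 50-base single-end reads after SENSE mRNA-Seq library preparation, per the labels' protocols. Trimmomatic and STAR are named in the submitters' processing notes without versions. Per the file headers, the authors made the count per gene with featureCounts 1.5.1, reverse-stranded, on GENCODE M13 and GRCm38. A deposited TPM column stands beside the counts, and TPM recomputed from the counts and exon lengths differed from it by at most 0.049. Symbols came from a GENCODE M21 table for 50376 of 50686 genes. Total counts were 20270348 to 50303271 per library, so counting error is small beside the replicate spread for Ifitm1, Ifitm2 and Ifitm3 and large for Ifitm7. No 2 libraries were identical.

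CPM were scaled by TMM. Genes were filtered with filterByExpr (minimum count 10, minimum total 15) and fitted by edgeR 4.0.16 (R 4.3.3, robust quasi-likelihood) with group as the only term over all 14 libraries, and p-values were adjusted by Benjamini-Hochberg over 14512 genes. The fit was tested on simulated data first. A log2 fold change is given ± its SE. The members and gene lists were chosen with earlier results of these data known, so no list was chosen independently of them. Members are named in full, and other genes by list and by being past the threshold. Nearest genes were ranked with a pseudocount of 1 CPM. Alternatives were DESeq2 1.42.0, limma-voom (limma 3.58.1), other scalings and filters, subsets of libraries and blocks. Between the states, 6 pairs of libraries share a code and letter in their descriptions, which the labels do not explain. Their deviations correlated at 0.0766, 0.11, -0.0541, 0.123, 0.102 and 0.117, so 2 pairs lie under 0.1. Libraries of the same replicate number but of different genotype correlated at -0.188 to 0.153. The values therefore do not tell whether a pair is 1 line. Taking each pair as 1 line is an assumption, and a block by line was fitted under it for the p210 comparisons and the interaction as an alternative. RefSeq promoters (GRCm38.p6) were matched by symbol. Protein sequences were not used here.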

Additional observations from a re-analysis of the deposited data

Results flagged for a closer look

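The difference between KO and WT lines in their response to p210 was past the threshold for Ifitm2, at a log2 value of -0.76. It was among the values that chose the family, so it is a description, and its dependence on single libraries is given above. In 3 of 82 groups of 4 libraries checked (chance gives about 5%), 1 library stood apart from the rest of its group. Ifit3 had 0.105 CPM in KO p210 replicate 1, where the other KO p210 libraries had 0. That value rests on 2 counts, at the floor of detection. Stx7 had 137.0 CPM in the library labelled KO p210 replicate 2, where the others had 121 to 123 CPM. Ms4a6c had 18.0 CPM in KO p210 replicate 1, where the others had 6.37 to 7.76 CPM. Among the Ifitm genes, Ifitm6 in KO p210 lay on the limit for standing apart at the digits computed, with 28.2 CPM in replicate 4 and 0.941 to 5.60 CPM in the others.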

How the results depend on the processing

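No value changed sign among those past the threshold. The members past the threshold numbered 1 for KO against WT in p210 lines (0 to 2 with each library left out in turn), 2 by upper quartile scaling, by library size only and by DESeq2, and 0 in a fit of only the 2 groups, with the second code alone, without both WT untransformed replicate 3 and KO p210 replicate 2, and with a replicate block by title number. With a term for 1 or 2 sequencing runs it stayed 1, with Ifitm3 in place of Ifitm2. They numbered 4 for KO against WT in untransformed lines (2 to 4; 4 without both), 1 with the first code alone and 0 with the second code alone. They numbered 3 for p210 in KO lines (3 to 3) and 3 in WT lines (2 to 3), with 0 in each with the second code alone, and with the replicate block by line 3 in KO and 2 in WT lines. For the interaction 1 member was past it (0 to 2), 3 by DESeq2, and 0 by library size only, with either code alone, without both, with the block by title number, with the replicate block by line and with a term for 1 or 2 sequencing runs. Of the interferon response list, KO against WT in p210 lines gave 4 (4 to 7), 9 by DESeq2, 2 by limma-voom, 3 without both, and 0 in a fit of only the 2 groups and with the second code alone. KO against WT in untransformed lines gave 5 (0 to 6), 9 by DESeq2 and in a fit of only the 2 groups, 3 with the block by title number, 2 without a filter, without both and with the term for runs, and 0 with either code alone. With p210 the list gave 25 in KO lines (21 to 26; replicate block 22), 0 with the second code alone, and 19 in WT lines (13 to 22; replicate block 14), 2 with the second code alone and 12 with the term for runs. The interaction gave 0 (0 to 1; 0 without both) and 5 by DESeq2. The cause of these changes was not tested, except that codes and left-out libraries leave fewer samples. The block by line could not be fitted for the genotype comparisons, nor the 2-group fit for the interaction. Scaling by library size only shifted the median of all genes by -0.096 to -0.116 (log2) in the 4 comparisons. Of 350 values of the members with a library left out, 324 kept direction and side of the threshold, as did 294 of 333 under other settings. Of 2520 such values of other named genes 2416 did, and 2192 of 2390 under other settings. Ifitm6 and Ifitm7 rest on few counts, and the sign of the Ifitm6 values for p210 and the interaction changed between settings.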
